A study of Mus musculus with 21 samples.

Results

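Messenger RNA levels of 32 enzymes and transporters of glucose use were examined in the hippocampus of mice separated from the dam early in life. The genes were chosen by name, for their roles in glycolysis, lactate handling, the pentose phosphate pathway and glycogen metabolism. All 32 were found among the 55487 genes of the deposited count table, and all 32 had enough reads to be tested. The samples were whole hippocampi of wild-type male C57BL/6 mice taken at 10 weeks of age. In maternal separation (MS), pups were kept from the dam for 4 hours a day from postnatal day 10 to postnatal day 17, in the light and the dark phase on alternate days, and by the study's methods most of the nesting material was taken from their home cages. Control mice had standard rearing (SR) and the same genotype, and no mouse carried a transgene or received a drug. One library was made per mouse, giving 9 MS and 12 SR libraries.

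Glycolysis splits glucose into pyruvate in the cytosol and yields ATP and NADH. Hexokinase traps the sugar in the cell, phosphofructokinase sets the pace of the pathway, and lactate dehydrogenase exchanges pyruvate with lactate, which monocarboxylate transporters carry across membranes. The pentose phosphate pathway branches off at glucose 6-phosphate and supplies NADPH and ribose, and glycogen, which in the brain is held mainly by astrocytes, stores glucose units. Neurons and astrocytes are known to differ in the isozymes they use, so that the hippocampus as a whole contains several forms of most of these enzymes.

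An MS library, from mouse A2, lay farthest from the rest on the first principal component and was left out, which left 8 MS and 12 SR libraries with total counts of 17276810 to 24052716 in MS and of 18368519 to 26450808 in SR. The mice are named here by set, a run of 3 consecutive animal numbers, with sets A to C in MS and D to G in SR. The labels name no nest, so that mice of 1 set may be littermates, and p-values over mice measure the spread between these mice. The 6 dentate granule cell markers summed to 288 to 547 CPM (reads of the gene per normalized library size, scaled as usual for this unit) in the MS mice and to 274 to 572 CPM in the SR mice, and the 6 markers of CA pyramidal neurons to 392 to 642 and 401 to 700.3 CPM, so that cells of both hippocampal fields were present in every library used. In mouse A2 the dentate markers summed to 118 CPM and the 6 striatal markers to 1729 CPM, where the other libraries had 67.1 to 600.1 CPM of the striatal markers in MS and 71.6 to 368 CPM in SR. Tissue was sequenced in bulk, so that fewer cells of a type and less RNA per cell cannot be told apart.

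The 32 genes spanned a wide range of levels, which are compared between genes as CPM per kb of annotated exons. This length joins the exons of all annotated transcripts, so that comparisons per length between genes depend on the annotation. In the SR mice the highest per length was Aldoa, the aldolase that splits fructose 1,6-bisphosphate, with 547 ± 32.7 CPM per kb (SD, n = 12). Gapdh, which forms NADH, followed with 408 ± 15.8 and Pkm, the pyruvate kinase of most adult tissues except liver, with 236 ± 11.1 CPM per kb. In CPM alone Gapdh was above Aldoa, with SR means of 1688 and 1592 CPM. The near-identical copies of Gapdh, given below, were not included. Every other enzyme of the lower part of glycolysis lay between 142 and 175 CPM per kb, namely Pgk1, Pgam1, Eno1 and Eno2. The regulators and side branches lay below these, though not below all of glycolysis. Pygb, a glycogen phosphorylase, had 55.8 CPM per kb, above the hexokinase Hk1 with 51.9. The Pfkfb genes, whose products make and remove the phosphofructokinase activator fructose 2,6-bisphosphate, had 3.14 to 5.92 CPM per kb, and Slc16a3, the transporter of strongly glycolytic cells, was the lowest with 0.491 ± 0.181 CPM per kb. Summed over the 32 genes, these mRNAs made up 10527 ± 321 CPM in SR (SD, n = 12) and 10536 ± 521 CPM in MS (SD, n = 8).

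**Figure D1:**
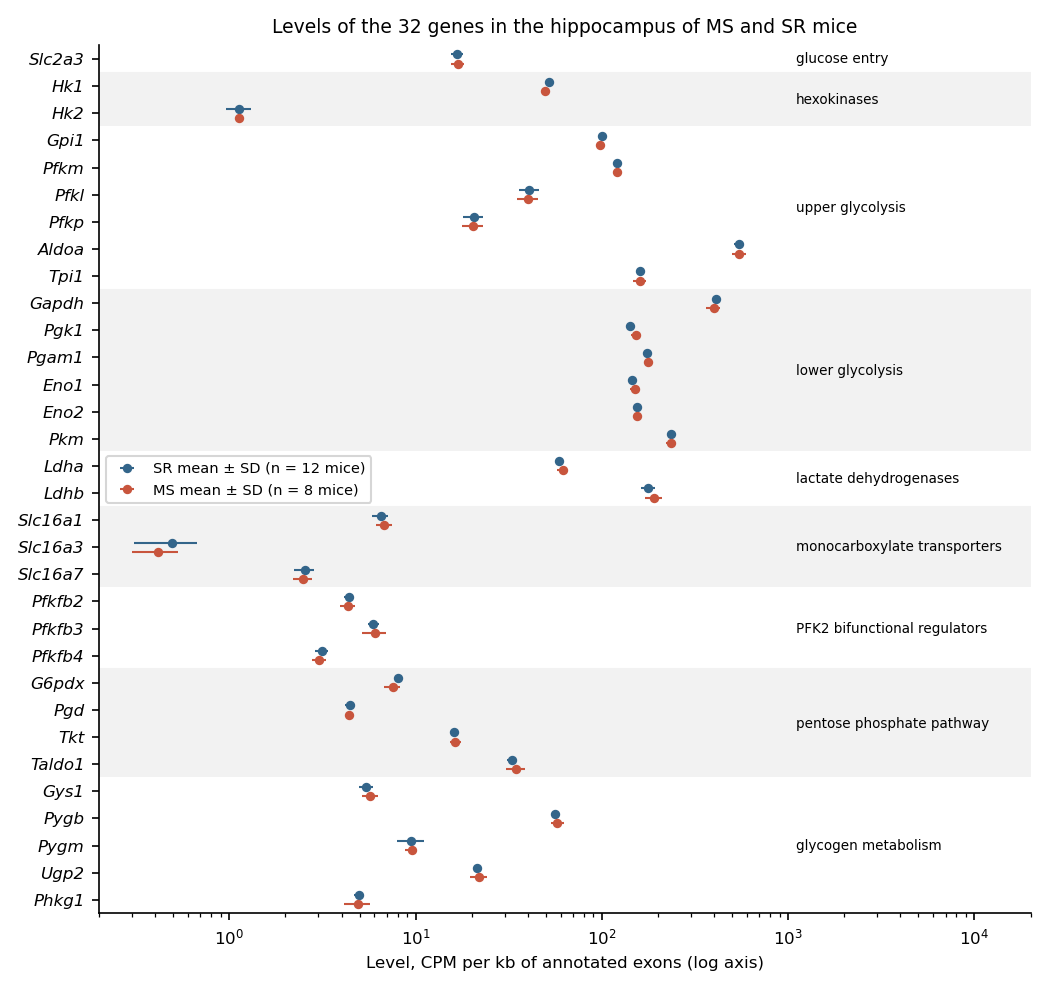
Levels of the 32 genes as CPM per kb of annotated exons (log axis), by role. Points are group means and bars the SD (SR in blue, MS in red). The genes run from 547 CPM per kb for Aldoa to 0.491 for Slc16a3 in SR, and the MS and SR points nearly coincide.

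Between SR mice most of these levels varied little. Among the SR mice the coefficient of variation ran from 2.99% for Eno2, the neuronal enolase, to 36.9% for Slc16a3, with a median of 5.57%. For the 29 members with a mean of at least 20 CPM the median was 5.15%, beside 6.22% for all 8057 genes at that level. In the MS mice some members varied more, such as Phkg1 with an SD of 5.12 CPM beside 1.93 CPM in SR. Others varied less, such as Hk2 with 0.327 CPM beside 1.02 CPM.

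Glycolytic genes are textbook targets of the hypoxia-inducible factors, which bind the letters ACGTG or GCGTG. Promoter windows of 250 bases before each RefSeq start (GRCm38.p6) were at hand for 30 of the 32 genes, in 45 windows. ACGTG was present on either strand in 18 of the 45 windows, or 40%, which belonged to 14 genes, and in 16.6% of all 32817 windows of the same length. GCGTG was present in 53.3% of the windows of these genes and in 28.1% of all windows. CACGTG, which contains ACGTG on both strands and is known as the E-box of bHLH factors, was present in 11.1% and 6.02%. GGGCGG, the GC box of Sp factors, was present in 53.3% and 32.7%. The letters describe the windows only, since binding was not measured. Windows of the same gene can overlap and share a match, as for Aldoa, and the shares over all windows were not matched for GC content. Windows are printed for Pgk1, the gene with the smallest p between MS and SR, for Ldha, whose window holds the most matches, and for Phkg1, the gene with the smallest p for a difference of the MS effect between the 2 ranges of animal numbers, with ACGTG and its reverse complement in capitals and the strand of the gene read 5′ to 3′. None of the 3 windows overlaps an annotated exon.
Pgk1 (chrX:106186850-106187099, plus strand): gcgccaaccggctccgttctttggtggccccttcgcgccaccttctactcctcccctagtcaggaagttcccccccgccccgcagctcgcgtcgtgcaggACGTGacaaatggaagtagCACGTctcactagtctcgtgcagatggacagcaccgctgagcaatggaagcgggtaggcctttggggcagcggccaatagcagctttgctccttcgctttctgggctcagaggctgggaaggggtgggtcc
Ldha (chr7:46845554-46845803, plus strand): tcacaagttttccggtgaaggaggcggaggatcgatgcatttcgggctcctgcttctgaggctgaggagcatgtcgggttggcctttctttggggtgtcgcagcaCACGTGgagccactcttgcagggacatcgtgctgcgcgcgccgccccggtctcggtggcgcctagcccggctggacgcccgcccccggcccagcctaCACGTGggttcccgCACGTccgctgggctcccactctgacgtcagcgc
Phkg1 (chr5:129879089-129879338, minus strand): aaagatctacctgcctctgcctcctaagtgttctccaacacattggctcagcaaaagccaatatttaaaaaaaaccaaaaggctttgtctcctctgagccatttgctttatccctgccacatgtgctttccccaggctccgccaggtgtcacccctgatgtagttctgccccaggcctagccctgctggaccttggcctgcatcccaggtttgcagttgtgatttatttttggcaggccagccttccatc
The Pgk1 window holds 2 matches, and that of Ldha holds 5 when a CACGTG counts once on each strand. The Phkg1 window holds 0 matches.

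The comparison of MS with SR asked whether early separation left a difference in these mRNAs in the adult hippocampus. None of the 32 members passed the test (edgeR's quasi-likelihood test, Benjamini-Hochberg adjusted p under 0.05 over 18146 genes), beside 2 genes, or 0.011%, of all genes tested. The smallest adjusted p of a member was 0.292, for Pgk1. DESeq2, which called 0.904% of the genes it adjusted, called 0 members. A limma-voom fit that took each set of mice as a random effect also called 0 members, but its share over all genes is not given here. At an unadjusted p under 0.05 there were 3 members, Pgk1 with a higher level in MS and Hk1 and G6pdx with a lower one, which is 1 higher and 2 lower of 32 beside 6.62% higher and 4.92% lower among all genes. DESeq2 gave 3 members at that p as well. The log2 fold changes of the members had a median of -0.0016, beside 0.00084 over all genes tested, with 15 above and 17 below 0.

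The standard errors of the estimates were small in a fit that took each mouse as independent. They had a median of 0.0481 on the log2 scale, beside 0.0779 over all genes tested. Mice of 1 set may be littermates, in which case these errors and the intervals may be too small. The 95% interval lay within 1.2-fold in both directions for 31 of the 32 members, beside 53.3% of all genes, and the exception was Slc16a3, whose fold change of -0.24 had an interval of -0.65 to 0.17 and whose count in the poorest library was 26. Phkg1 was among the 31, although its fold change had opposite signs in the 2 ranges of animal numbers, as given below. These backgrounds were not matched for level. A mean of at least 20 CPM was reached by 29 of the 32 members and by 8057 of the 18146 genes tested. There were 21 members whose fold change was smaller than its own standard error. No member had MS and SR values that did not overlap, beside 2 genes, or 0.011%, of all.

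**Figure D2:**
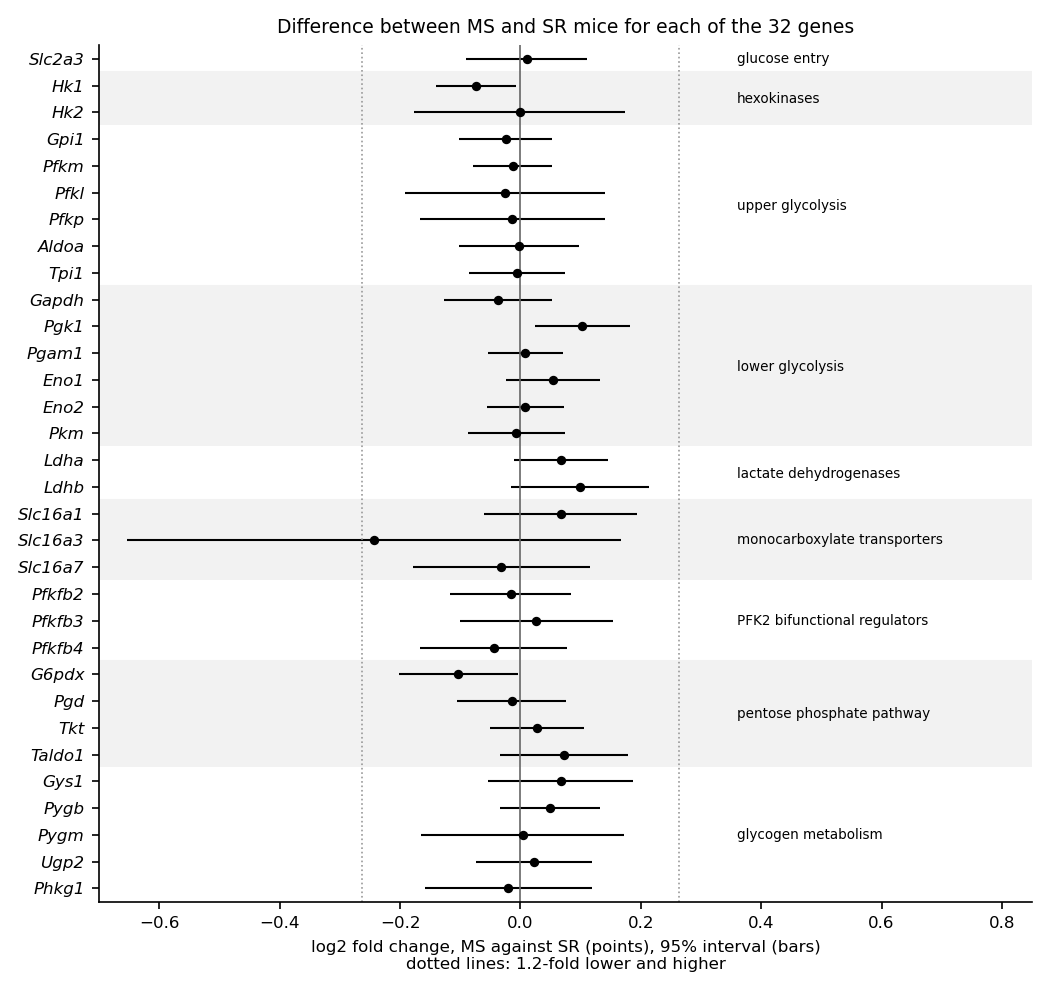
Log2 fold change of MS against SR for each of the 32 genes, by role (points), with the 95% interval (bars) and dotted lines at 1.2-fold in both directions. The intervals of 31 genes lie between the dotted lines, and that of Slc16a3 reaches -0.65.

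Glucose entry and trapping came first in the pathway. Slc2a3, the main neuronal glucose transporter, had medians of 122 CPM in both groups and a log2 fold change of 0.01 (SE 0.0487). Hk1 (ENSMUSG00000037012, chr10:62268855-62379908), the hexokinase of the brain, lay between 396 and 449.5 CPM in MS with a median of 425, and between 404 and 461 CPM in SR with a median of 449.9. The 8 MS values all fell below the SR median, yet the ranges overlapped. The log2 fold change was -0.07 (SE 0.0322, p = 0.0312, adjusted p = 0.375). Hk2, an inducible hexokinase, was scarce, with a lowest, median and highest of 6.27, 6.74 and 7.33 CPM in MS and of 4.72, 6.48 and 8.18 CPM in SR, and its fold change was smaller than 0.01. Per length, Hk2 stood at 0.0230 of Hk1 in the median MS mouse and at 0.0215 in the median SR mouse, and an exact permutation test of the log2 ratio gave p = 0.249.

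In the upper part of glycolysis all 6 genes had fold changes between -0.03 and 0, and no p under 0.05. Gpi1, which turns glucose 6-phosphate into fructose 6-phosphate, had a log2 fold change of -0.02 (SE 0.0376), Aldoa one of -0.0018 (SE 0.0482) and Tpi1, the triose phosphate isomerase, one of -0.0059 (SE 0.0389). The phosphofructokinase subunits catalyse the committed step. Pfkm, the muscle type and the most abundant per length, ran from 369.8 to 429.8 CPM in MS with a median of 397, and from 380.1 to 429 CPM in SR with a median of 406. Pfkl, the liver type, ran from 217 to 316 CPM in MS with a median of 268, and from 193 to 310.1 CPM in SR with a median of 277. Pfkp, the platelet type, ran from 226 to 342 CPM in MS with a median of 271, and from 234 to 349 CPM in SR with a median of 267. The 3 pairs of ranges overlapped almost fully, and the fold changes were -0.01 for Pfkm (SE 0.0318), -0.03 for Pfkl (SE 0.0800) and -0.01 for Pfkp (SE 0.0741). Pfkl stood at 0.341 of Pfkm per length in the median MS mouse and at 0.342 in the median SR mouse.

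Pfkl and Pfkp, singled out after their values were seen, varied more between SR mice than Pfkm did, with coefficients of variation of 12.4% and 12.1% beside 3.51%, and they did so in opposite directions. Mouse E2 had the lowest Pfkl of the 20 mice, 193 CPM, and the highest Pfkp, 349 CPM. Mouse C1 had the highest Pfkl, 316 CPM, and the lowest Pfkp, 226 CPM. Across the 20 mice, log2 Pfkl and log2 Pfkp had Pearson's r = -0.898 and Spearman's rho = -0.866, given as a description with no p, since the same mice drew attention to the pair. Without mice A1 and E2, the farthest from the median of Pfkl, r was -0.809. It was -0.900 within SR and -0.912 within MS, and -0.858 and -0.977 within the low and the high range of animal numbers (sets A, B, D, E and F against C and G). Of the 9 isozyme pairs examined, the other 8, such as Ldha with Ldhb and Hk1 with Hk2, had r between -0.305 and 0.455.

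The balance of the pair moved with markers of hippocampal principal cells. Over the 10 marker lists of cell types, examined after the values of the pair were seen, the log2 ratio of Pfkp to Pfkl had r = -0.956 and rho = -0.925 with the mean log2 level of the 6 dentate granule cell markers, and r = -0.930 and rho = -0.913 with that of the 6 CA pyramidal neuron markers (two-sided permutation p of 1e-05, the smallest that 100000 draws can give, and adjusted p of 5e-05 for each). With the striatal markers it had r = 0.682 (adjusted p = 0.0076) and rho = 0.827 (adjusted p = 6.67e-05). The other 7 lists, of astrocytes, endothelium, choroid plexus, red cells, microglia, neurons at large and oligodendrocytes, had adjusted p-values of 0.175 or more for r. For the dentate markers r stayed at -0.927 without mice A1 and E2, at -0.949 within SR and -0.973 within MS, and at -0.942 and -0.944 within the 2 ranges. All 20 libraries held the dentate and the CA markers, and the summed dentate markers overlapped fully between MS and SR, as given above. Among the members, Pfkl and Pfkp were the 2 with an r over 0.8 in size with the dentate markers, 6.25% of 32 beside 4.45% of all genes tested. The relation was not particular to them, since the size of r had a median of 0.477 over the members and of 0.283 over all genes tested. Aldoa had r = 0.784 and rho = 0.693 (permutation p adjusted over the members of 0.000213 and 0.0115), Gpi1, Pkm and Pygb had r of 0.640 to 0.669, and Ldhb had r = -0.662. Without mice A1 and E2, r was 0.613 for Aldoa, 0.276 to 0.431 for Gpi1, Pkm and Pygb, and -0.452 for Ldhb. Mouse A2, which entered none of these values, had 166 CPM of Pfkl and 380 CPM of Pfkp. With the dentate score as a term, an alternative added after the values were seen, the SE of the MS effect went from 0.0800 to 0.0337 for Pfkl and from 0.0741 to 0.0308 for Pfkp, and the fold changes were 0.0044 and -0.04. The cause of this relation was not tested.

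**Figure D3:**
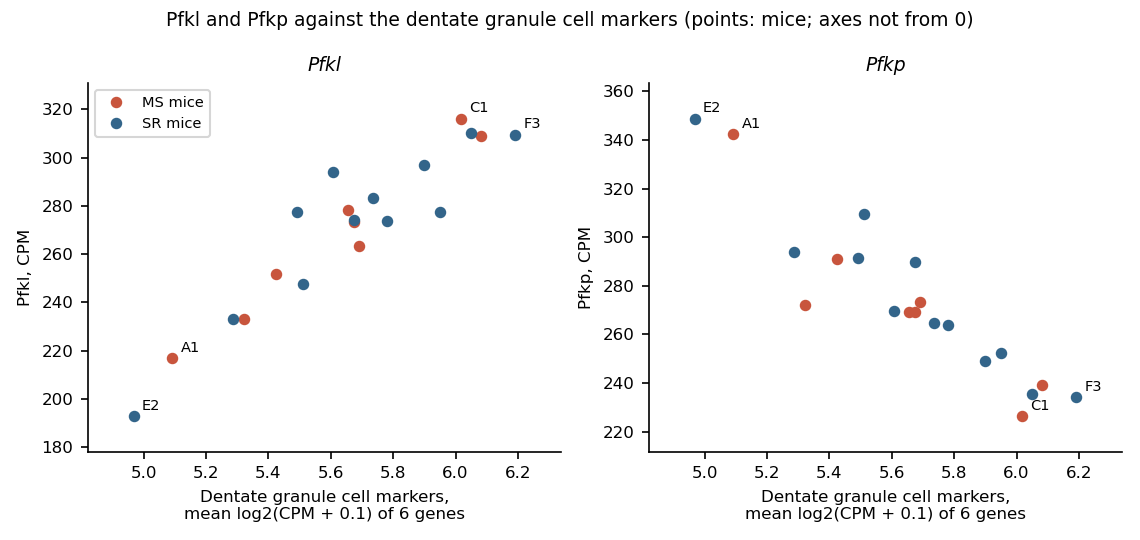
Pfkl (left) and Pfkp (right) in CPM against the mean log2(CPM + 0.1) of the 6 dentate granule cell markers, with 1 point per mouse (SR in blue, MS in red). Pfkl is higher and Pfkp lower in mice with more of the markers, from mouse E2 with the least of them (193 and 349 CPM) to mouse F3 with the most (309 and 234 CPM), and MS and SR mice are interspersed.

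In the lower part of glycolysis Pgk1 stood out by p, and the other 5 genes had no p under 0.05. Pgk1 (ENSMUSG00000062070, chrX:106187100-106203699), whose product makes the first ATP of the pathway, lay between 317 and 376 CPM in MS with a median of 341, and between 293 and 344 CPM in SR with a median of 318. Of the 8 MS mice, 7 were above the SR median and 4 above the highest SR mouse. The log2 fold change was 0.10 (SE 0.0382, p = 0.0127), and with an adjusted p of 0.292 it did not pass. With all 21 libraries the fold change of Pgk1 was 0.06 (edgeR p = 0.220). It was 0.13 in the low and 0.04 in the high range of animal numbers (edgeR p = 0.00659 and 0.662). Eno1, the enolase of most tissues, ran from 755 to 906 CPM in MS with a median of 806 and from 704 to 830.0 CPM in SR with a median of 781, a log2 fold change of 0.05 (SE 0.0377, p = 0.161, adjusted p = 0.605). Eno2 ran from 687 to 785 CPM in MS with a median of 722 and from 694 to 763 CPM in SR with a median of 714, a log2 fold change of 0.0083 (SE 0.0310). Eno1 stood at 0.982 of Eno2 per length in the median MS mouse and at 0.935 in the median SR mouse (exact permutation p = 0.182, adjusted p = 0.979 over 8 isozyme ratios). Both enolases were thus nearly equal in both groups per kb of annotated exons, which is 5.379 kb for Eno1 and 4.705 kb for Eno2. Gapdh had a log2 fold change of -0.04 (SE 0.0433), Pgam1, the phosphoglycerate mutase, one of 0.0082 (SE 0.0304) and Pkm one of -0.0069 (SE 0.0392).

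Several of these genes have near-identical copies in the mouse genome, from which their reads may not be told apart. Annotated genes with at least 95% identity to Gapdh over at least 50% of their own exon bases numbered 89 and together held 957 CPM, or 57.3% of the 1671 CPM counted on Gapdh itself. Pgam1-ps2 held 148 CPM, or 42.5% of the level of Pgam1, the copies of Pgk1 held 17.5%, mostly Pgk1-rs7 and Gm5537, and those of Eno1 held 11.3%, mostly Gm4735 and Eno1b. How the counter treated reads that fit several places was not given in the sources used here, so that the levels of these 4 genes are uncertain. Counted together with its copies, Pgk1 had a log2 fold change of 0.08 and p = 0.0519, Eno1 one of 0.05, Gapdh one of -0.04 and Pgam1 one of -0.01. The copies Pgk1-rs7 and Gm5537 alone had fold changes of -0.01 and -0.03.

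Lactate dehydrogenase is a tetramer of A subunits, which favour lactate, and B subunits, which favour pyruvate. Ldha ran from 185 to 222 CPM in MS with a median of 203, and from 179 to 212 CPM in SR with a median of 193, a log2 fold change of 0.07 (SE 0.0377, p = 0.0876, adjusted p = 0.513). Ldhb ran from 256 to 339 CPM in MS with a median of 299.6, and from 251 to 333 CPM in SR with a median of 274, a log2 fold change of 0.10 (SE 0.0554, p = 0.0856, adjusted p = 0.509). For each of them 6 of the 8 MS mice lay above the SR median. Ldhb was the more abundant per length in every mouse, at 3.10 times Ldha in the median MS mouse and 3.00 times in the median SR mouse. The ratio ran from 2.71 to 3.51 in MS and from 2.65 to 3.91 in SR. It depends on the annotated exon lengths, 1.57 kb for Ldhb and 3.31 kb for Ldha. In CPM alone the SR means were closer, 278 CPM for Ldhb and 194 CPM for Ldha.

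The monocarboxylate transporters were low. Slc16a1, found on endothelium and glia, ran from 26.7 to 35.8 CPM in MS with a median of 29.0, and from 24.6 to 33.2 CPM in SR with a median of 27.8, a log2 fold change of 0.07 (SE 0.0614). Slc16a7, the neuronal form, ran from 23.9 to 34.7 CPM in MS with a median of 29.8, and from 25.6 to 38.3 CPM in SR with a median of 29.5, a log2 fold change of -0.03 (SE 0.0714). Slc16a3 ran from 1.34 to 2.88 CPM in MS with a median of 2.30, and from 1.63 to 5.13 CPM in SR with a median of 2.57, a log2 fold change of -0.24 (SE 0.199, p = 0.232, adjusted p = 0.679). None of the 3 had groups that parted.

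The bifunctional enzymes of fructose 2,6-bisphosphate had no p under 0.05. Pfkfb2 ran from 27.7 to 35.5 CPM in MS with a median of 30.8, and from 28.9 to 36.1 CPM in SR with a median of 31.8. Pfkfb3, the form with the strongest kinase activity, ran from 39.8 to 57.8 CPM in MS with a median of 42.6, and from 40.9 to 51.5 CPM in SR with a median of 44.2. Pfkfb4 ran from 12.9 to 16.1 CPM in MS with a median of 15.2, and from 13.2 to 18.1 CPM in SR with a median of 14.8. Their log2 fold changes were -0.02 (SE 0.0486), 0.03 (SE 0.0615) and -0.04 (SE 0.0589) in that order, and 2 MS mice exceeded every SR mouse in Pfkfb3.

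Of the 4 pentose phosphate genes, G6pdx (ENSMUSG00000031400, chrX:74409483-74429194), the entry enzyme that makes NADPH, ran from 20.6 to 27.9 CPM in MS with a median of 23.0, and from 22.8 to 26.5 CPM in SR with a median of 24.9. All but 1 of the 8 MS mice lay below the SR median and 3 lay below the lowest SR mouse, while mouse B1 was above the highest. The log2 fold change was -0.10 (SE 0.0479, p = 0.0411, adjusted p = 0.409). Pgd, the next NADPH-forming step, had a log2 fold change of -0.01 (SE 0.0439), and Tkt, the transketolase, one of 0.03 (SE 0.0380). Taldo1, the transaldolase, ran from 69.0 to 95.5 CPM in MS with a median of 72.3, and from 65.8 to 79.1 CPM in SR with a median of 71.9, a log2 fold change of 0.07 (SE 0.0514, p = 0.170, adjusted p = 0.616).

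Glycogen is built by glycogen synthase from UDP-glucose and broken down by phosphorylase, which phosphorylase kinase switches on. Pygb, the brain phosphorylase, ran from 235 to 301 CPM in MS with a median of 280.0, and from 243 to 288 CPM in SR with a median of 270.1, a log2 fold change of 0.05 (SE 0.0402). Pygm, the muscle form, ran from 25.8 to 33.3 CPM in MS with a median of 30.7, and from 23.9 to 41.7 CPM in SR with a median of 29.3, a log2 fold change of 0.0039 (SE 0.0814). Pygm stood at 0.170 of Pygb per length in the median MS mouse and at 0.163 in the median SR mouse. Gys1, the synthase outside the liver, had a log2 fold change of 0.07 (SE 0.0583), Ugp2, which makes UDP-glucose, one of 0.02 (SE 0.0470) and Phkg1, a catalytic subunit of phosphorylase kinase, one of -0.02 (SE 0.0672). None of the 8 isozyme ratios passed a test between MS and SR, with exact permutation p-values from 0.182 upward and adjusted p-values of 0.979 or more.

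Single mice drew the extremes of many members. MS mouse C1 was the highest of the 20 mice in 14 of the 32 genes, among them Aldoa, Gapdh, Pgk1, Eno1, Pkm and Ldha, and its members summed to 11671 CPM, where the other 19 mice had 9764 to 11024 CPM. SR mouse E2 was the lowest in 7 genes and gave the lowest of these sums. The rank correlation of level with gene length was 0.453 in C1, the lowest of all libraries, where the SR libraries had 0.476 to 0.494. Its part in the values of C1 was not tested. Without C1, 0 members were called, as with it, so that this count does not show what C1 contributed.

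**Figure D4:**
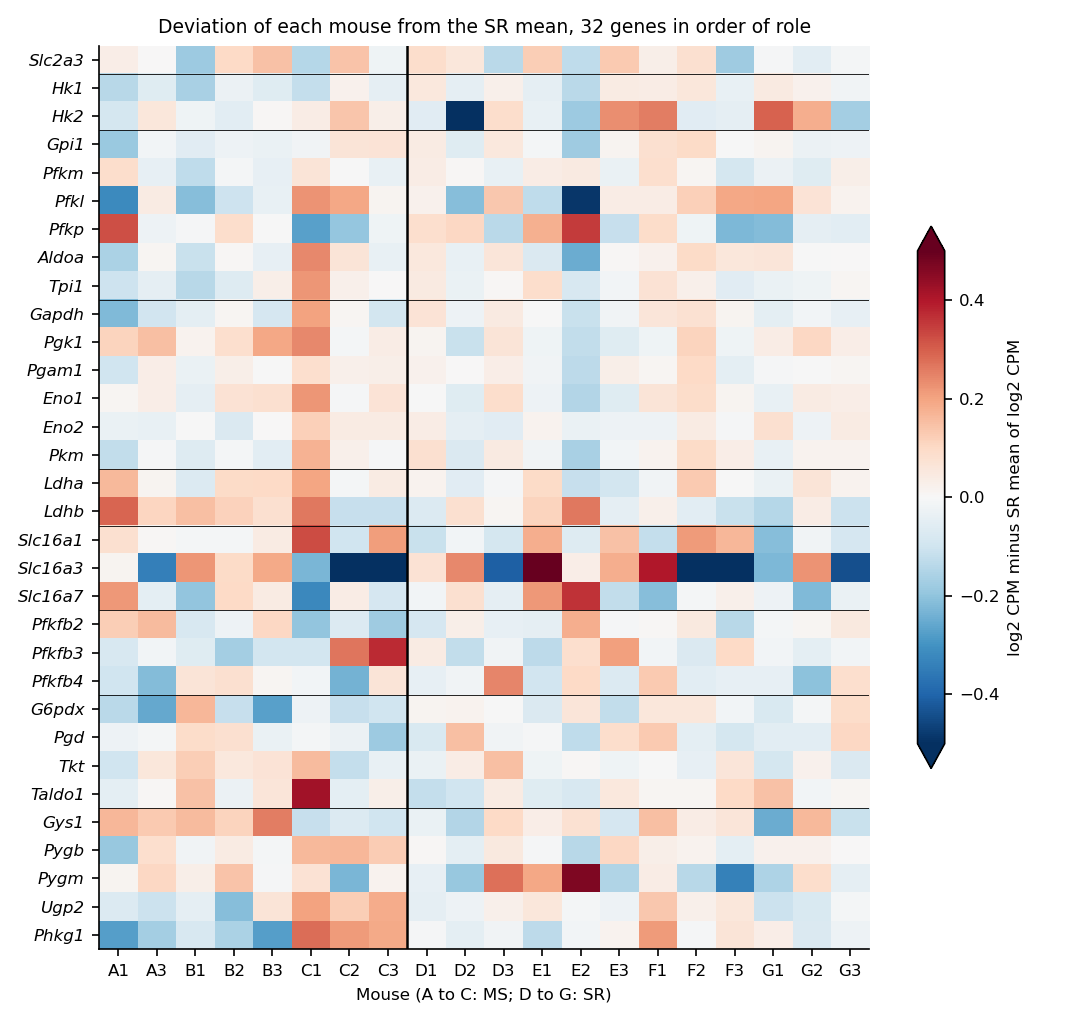
Log2 CPM of each gene (rows, in order of role) in each mouse (columns) minus the SR mean of log2 CPM, with colours limited to 0.5 in both directions. Mouse C1 is red over most of glycolysis, E2 is mostly blue there except for Pfkp and Ldhb, and Phkg1 and Ugp2 are red in the 3 C mice and mostly blue in A and B.

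Both conditions were present in 2 ranges of animal numbers, the low range with 5 MS and 9 SR mice and the high range with 3 MS mice (set C) and 3 SR mice (set G), and the effect of MS was compared between them. edgeR called 0 of 19370 genes (0.0%) and no member, with 6 members at an unadjusted p under 0.05 beside 8.52% of all genes. DESeq2 called 19 genes, or 0.0879%, of which 2 were members, Phkg1 and Ugp2. Phkg1 (ENSMUSG00000025537, chr5:129863421-129898549) lay between 26.7 and 30.6 CPM in the 5 MS mice of the low range, and at 39.2, 37.5 and 36.9 CPM in the MS mice C1, C2 and C3. SR mice had 29.5 to 37.4 CPM in the low range and 30.7 to 33.1 CPM in the high range. The MS mice of the low and the high range thus lay on opposite sides of the SR mice of set G. The log2 difference between the ranges was 0.45 (SE 0.0889), with an adjusted p of 0.219 by edgeR and 0.00872 by DESeq2. Ugp2 (ENSMUSG00000001891, chr11:21321138-21371201) lay between 56.7 and 68.7 CPM in the MS mice of the low range, at 75.7, 71.6 and 74.7 CPM in the C mice, and between 61.0 and 65.3 CPM in the G mice. Its log2 difference was 0.32 (SE 0.0752), with an adjusted p of 0.360 by edgeR and 0.0341 by DESeq2. Pfkfb3 was next by p, with a log2 difference of 0.31 (SE 0.112, adjusted p = 0.462 by edgeR), which came from mice C2 and C3 while C1 had 41.9 CPM.

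Phkg1 thus carried effects of opposite sign in the ranges, a log2 fold change of -0.20 (SE 0.0532, adjusted p = 0.0673) in the low range and of 0.25 (SE 0.0753, adjusted p = 0.937) in the high range. Without set C it was the only member called, with -0.19 (SE 0.0483, adjusted p = 0.0412), and 340 of 18561 genes, or 1.83%, were called then. For Ugp2 the log2 fold changes were -0.09 (SE 0.0433) and 0.24 (SE 0.0686). In the low range 7 members had an unadjusted p under 0.05 beside 16.6% of all genes, and in the high range 2 beside 4.52%. In Phkg1 and Gys1 every MS mouse lay on one side of the SR mean in the low range and on the other side in the high range, a crossing seen in 3.73% of all genes tested. Set C is the only MS set of its range, so that the range, the set and a nest that the set may stand for cannot be told apart. Exons of Phkg1 overlap those of Sumf2 on the opposite strand over 630 bases, and Sumf2 had 10.2 to 13.5 CPM in the low and 12.0 to 13.7 CPM in the high range of MS. With the dentate score as a term, the log2 difference was 0.43 for Phkg1 and 0.32 for Ugp2.

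**Figure D5:**
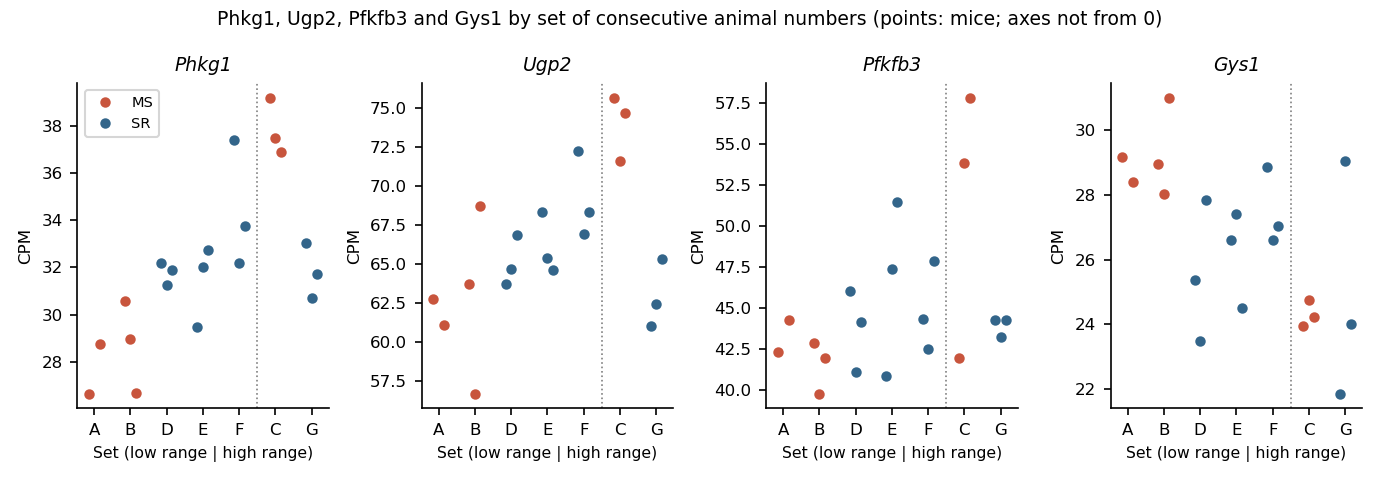
Phkg1, Ugp2, Pfkfb3 and Gys1 in CPM by set of consecutive animal numbers, with the low range left and the high range right of the dotted line and 1 point per mouse (MS in red, SR in blue). The 3 C mice have 36.9 to 39.2 CPM of Phkg1, above the A and B mice at 26.7 to 30.6 CPM, and 23.9 to 24.8 CPM of Gys1, below the A and B mice at 28.0 CPM or more.

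Among SR mice alone, no member passed a test of differences among the 4 sets. edgeR called 0 of 32, beside 3 genes, or 0.0158%, of 19023, and 0 members had an unadjusted p under 0.05 beside 7.46% of all genes, and DESeq2 called 0 members. The 3 with the smallest p were Pfkl and Ugp2 (both p = 0.115) and Slc16a1 (p = 0.120), with adjusted p-values of about 0.71.

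The rest of the pathway gave a like picture. Of 74 further genes of glucose and lactate transport, glycolysis, the pentose phosphate pathway, glycogen and gluconeogenesis, 66 were tested and 0 passed, and 3 with a higher and 4 with a lower level in MS had an unadjusted p under 0.05. Phka2, a regulatory subunit of phosphorylase kinase, ran from 29.9 to 38.6 CPM in MS with a median of 35.7, and from 35.7 to 42.9 CPM in SR with a median of 40.5. The 8 MS mice all lay below the SR median and 4 below the lowest SR mouse, a log2 fold change of -0.19 (SE 0.0430, p = 1.43e-04, adjusted p = 0.111). Bsg, the chaperone that brings Slc16a1 to the membrane, ran from 287.5 to 390.2 CPM in MS and from 265 to 413 CPM in SR, a log2 fold change of 0.19 (SE 0.0745, adjusted p = 0.327). Stbd1, which binds glycogen, had a log2 fold change of 0.43 (adjusted p = 0.342), and the transporter Slc16a11 one of -0.13 (adjusted p = 0.348). The 8 choroid plexus markers, whose tissue borders the hippocampus, summed to 53.1 to 4225 CPM in MS and 29.1 to 4557 CPM in SR. All 8 were higher in MS, with a median log2 fold change of 0.90, and none was called. The median sum was 3338 CPM in MS and 842 CPM in SR. With their score as a term 0 members were called, beside 0 of all genes, so that this count does not set the members apart. The 6 striatal markers were also all higher in MS, with a median log2 fold change of 0.56, and the 6 markers of neurons at large, which summed to 4462 to 5111 CPM in MS and 4746 to 5311 CPM in SR, were all lower, with a median of -0.07. None of these 12 was called, and 2 of the neuron markers had an unadjusted p under 0.05. Beyond the correlations of both lists with the ratio of Pfkp to Pfkl, given above, the part of these markers in the members' values was not tested.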

How the data were processed

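Poly-A RNA was sequenced from 21 hippocampi, 1 library per mouse. The authors aligned paired-end reads with STAR (2.7.3a in the submitters' processing notes) to GRCm38, counted them with featureCounts on Ensembl genes and deposited raw counts per gene, neither normalized nor filtered. The strand setting was not given in the sources used here, and exons of 13 members overlap a gene on the opposite strand and of 4 a gene on the same strand. Columns that belong to no sample numbered 0.

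Mice were grouped by the treatment in their labels. The library farthest from the median on the first principal component of 500 genes (MS mouse A2) was left out. For the other 20, genes were kept by filterByExpr with a minimum count of 10, libraries were scaled by TMM, and differences were tested with the robust quasi-likelihood test of edgeR 4.0.16 and Benjamini-Hochberg adjustment over all genes tested, with a threshold of 0.05. DESeq2 1.42.0, limma 3.58.1 and other settings were alternatives. The fits were tested on simulated data. Exon lengths were those of GENCODE M21 (55227 of the 55487 genes), and copies were found with BLAST+ 2.17.0 at 95% identity or more. Isozyme ratios and correlations with markers over mice were tested by permutation.

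The members, lists, markers and tests were chosen with earlier results of these data known. All members are named. Lowest, median and highest values are given for the 8 with the smallest p and for isozymes. The other pathway genes named are those of the 5 with the smallest p under 0.05, of which 1 is not reported here, and for the other tests the 3 members with the smallest p are named. Gys1, the mice singled out, the isozyme ratios and the Pfkl and Pfkp relation were added after the values were seen.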

Additional observations from a re-analysis of the deposited data

Results flagged for a closer look

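In MS mouse C1 4 members lay far from the other 7 MS mice: Tpi1 at 515 CPM where the others had 401 to 451, Eno1 at 906 CPM where they had 755 to 822, Pkm at 1329 CPM where they had 1082 to 1199, and Taldo1 at 95.5 CPM where they had 69.0 to 79.1. In MS mouse C2 Pygm lay apart at 25.8 CPM, below the 30.0 to 33.3 CPM of the others. Chance alone marks a sample in about 1 of 20 groups, and the MS groups of 32 genes were examined. The 4 values of C1 come from 1 library.

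Phkg1 and Gys1 had MS mice on opposite sides of the SR mean in the 2 ranges of animal numbers, with log2 differences of the MS effect of 0.45 and -0.19. For Gys1 the 5 MS mice of the low range had 28.0 CPM or more and the 3 of the high range 23.9 to 24.8 CPM, and edgeR gave an adjusted p of 0.644 for the difference.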

How the results depend on the processing

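For MS against SR, no member was called in the alternatives on all mice or on 1 range only. The lowest adjusted p of a member in these was 0.0673, for Phkg1 in the low range. Of 32 members, 21 had a value smaller than its standard error, for which a sign was not assessed. Signs changed for Gys1 (-0.039 in the high range, and -0.00017 to 0.16 with a mouse or set left out), for Pygb (-0.012 in the low range, and -0.017 to 0.078 with a mouse or set left out) and for Slc16a1 (-0.020 in the low range). The cause was not tested. With a mouse or set left out, 0 to 1 members were called, the 1 being Phkg1 without set C, and 1 to 6 had an unadjusted p under 0.05, with 1 without set A, D, F or G and 6 without set C, beside 7 in the low range only. The median of the members was 0.0509 in the high range only. Over all genes, where 2 were called, the count was 1 with all 21 libraries and without the filter, 127 with DESeq2, 230 in the low range, 0 in the high range, with counts summed within sets and with the choroid plexus term, 4 with the length trend term, and 0 to 340 with a mouse or set left out, with 109 without C2 or C3 and 0 without any 1 of B1, B2, A1 or A3 in MS and F1, E3 or D2 in SR. The difference between ranges gave 2 members with DESeq2 and 0 otherwise. No paired analysis was possible because the labels give the groups no shared replicate numbers. Slc16a3, with counts down to 26, is the member that depth limits most, and the number of mice limits every test, the difference between ranges with 3 mice a group in the high range among them.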
